A study of Mus musculus with 24 samples.

Results

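Antibodies are built from heavy and light immunoglobulin chains, and plasma cells of mucosal tissue join IgA or IgM with the J chain before the polymeric immunoglobulin receptor, Pigr, carries them into secretions. The constant gene of the heavy chain sets the isotype, such as IgM, IgD, IgG or IgA. Each plasma cell clone transcribes 1 rearranged variable gene per chain, so the variable genes seen in a tissue reflect which clones lie in it.

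RNA was measured in the main olfactory epithelium of untreated mice by stranded sequencing of poly A selected RNA. WT mice were set against iRhom2-/- mice, which carry the Rhbdf2tm1b(KOMP)Wtsi allele, on a mixed 129Sv and C57BL/6 background. The 24 libraries, 1 per mouse, fell into 3 strata: 3 WT and 3 iRhom2-/- mice of 8 weeks, 3 and 3 of 10 weeks, and 6 and 6 of 5 and 30 weeks. In the last stratum the columns, numbered 7 to 12 in each genotype, do not say which mice were of 5 and which of 30 weeks, so these libraries were kept as 1 stratum and age was not inferred. Library totals ran from 25333822 to 48660394 counts.

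The genes were chosen by symbol: immunoglobulin heavy, kappa and lambda variable and constant genes, and Jchain. Of 360 such symbols among 45706 genes, 196 had at least 10 counts over the 24 libraries. They comprised 91 Ighv, 89 Igkv and 3 Iglv variable genes, 8 heavy and 4 light constant genes, and Jchain. Ighv1-2 lay just inside that minimum with 10 counts, and Ighv1-23, Igkv4-71 and Igkv6-29 lay just outside with 9. On GRCm38, 99 of the genes lie on chromosome 12 between 113254830 and 116000461, 90 on chromosome 6 between 67555497 and 70726966, 6 on chromosome 16 between 19061618 and 19260859, and Jchain on chromosome 5 at 88519809 to 88527891. Igha had the most counts, 339315, ahead of Igkc with 213083 and Jchain with 103499.

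The targeted gene, Rhbdf2, followed the genotype labels. As CPM, counts scaled to a library of 1000000 after TMM correction (trimmed mean of M values) of its size, it was at 19.3 or more in every WT library and between 7.19 and 13.4 in the iRhom2-/- libraries, without overlap. Its log2 fold change, iRhom2-/- over WT, was -0.80 at 8 weeks (adjusted p 0.0297), -1.22 at 10 weeks (0.0404), -1.15 at 5 and 30 weeks (0.000801) and -1.08 over all 24 mice (9.78e-08), by the quasi-likelihood test of edgeR, adjusted over all genes tested by the method of Benjamini and Hochberg. With 1 mouse left out, its adjusted p reached up to 0.146 at 8 weeks and 0.227 at 10 weeks.

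WT mouse 3 of 8 weeks is labelled female, but it held 48.6 CPM of the Y-linked Ddx3y and 0.219 CPM of Xist, which goes against that label. The other 2 libraries labelled female, mouse 3 of 10 weeks in each genotype, held 204 and 286 CPM of Xist. WT mouse 1 of 8 weeks stood apart in immunoglobulin RNA: its 196 genes summed to 13612 CPM, against 1721 CPM in the next highest of the 24 libraries, and 116 of the 196 genes were highest in it. The main results at 8 weeks are therefore given with and without it.

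**Figure D1:**
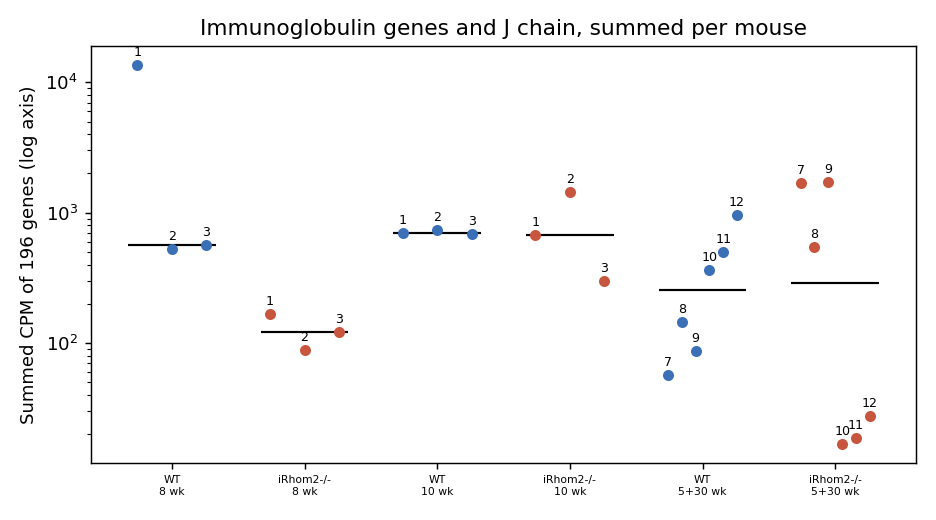
Summed CPM of the 196 genes in each mouse, on a log axis; points are mice with the number in their label, and lines are group medians. WT mouse 1 of 8 weeks lies at 13612, and the iRhom2-/- libraries of 5 and 30 weeks run from 16.9 to 1721.

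At 8 weeks the summed immunoglobulin CPM were 13612, 526 and 568 in the 3 WT mice and 166, 88.5 and 122 in the 3 iRhom2-/- mice. All 3 iRhom2-/- mice thus lay below all 3 WT mice. The log2 ratio of the genotype means was -5.29, and without WT mouse 1 it was -2.12. At 10 weeks the WT mice held 697, 733 and 682 CPM and the iRhom2-/- mice 675, 1431 and 299, so that the iRhom2-/- values spread on both sides of the WT values. The log2 ratio was 0.19, and its sign rested on 1 mouse: it was -0.53 without iRhom2-/- mouse 2 and 0.58 without iRhom2-/- mouse 3. That mouse 2 also stood apart in other RNA. Its TMM factor, 0.785, was the lowest of the 24 libraries, and Bpifb9b alone took 4663884 of its 34380927 counts. At 5 and 30 weeks the lowest, median and highest values were 57.3, 255 and 968 CPM in WT and 16.9, 289 and 1721 CPM in iRhom2-/- libraries. The genotypes overlapped there: iRhom2-/- libraries 7, 8 and 9 held 1679, 550 and 1721 CPM, and libraries 10, 11 and 12 held 16.9, 18.8 and 27.5 CPM, below every WT library. These sums were not tested.

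The first comparison asked which immunoglobulin genes differed between genotypes at 8 weeks. At an adjusted p under 0.1, 336 of 19335 genes tested (1.74%) were lower and 626 (3.24%) higher in iRhom2-/- mice. Of 92 immunoglobulin genes tested, 19 were lower and 0 higher. At an unadjusted p under 0.05, 80 (87.0%) were lower and 0 higher, where 3827 of all genes (19.8%) had such a p. By DESeq2 38 of the 92 (41.3%) and 20.5% of all genes had such a p. Any gene that DESeq2 left without a p, here and below, stayed in the totals as not passing. The number of such genes was not counted. DESeq2 called 33 lower and 0 higher, and 1023 (5.29%) lower and 1172 (6.06%) higher over all genes. All 3 iRhom2-/- mice lay below all 3 WT mice in 66 of the 92 genes (71.7%), and in 10.6% of all genes tested. The 92 genes were read in the same 3 and 3 mice and are not independent of each other. Such counts of genes, here and below, are thus not counts of separate observations of the genotype. The median log2 fold change of the 92 genes was -5.47. It was -5.06 with the 8 genes that had no count in any iRhom2-/- mouse set to the bound that 3 counts per library allow.

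The filter on low counts can be passed through the WT mice alone, so the 92 genes favour those high in WT. With 1 count in any library, 57 of 194 genes were called lower, with a median of -4.93, and 372 of all 27812 genes (1.34%) were. With 10 counts required in every library 5 of 13 were called lower, with 335 of all 17479 genes (1.92%), and the median of the 13 lay between -5.47 and -4.93. Without WT mouse 1, 33 of 93 immunoglobulin genes were called lower with a median of -2.76, and 324 (1.64%) of all genes were lower and 398 (2.01%) higher. The number of immunoglobulin genes called was 3 without WT mouse 2 and 6 without WT mouse 3, the mouse whose sex label did not match, with 103 and 132 of all genes called. Without iRhom2-/- mouse 1, 2 or 3 it was 9, 0 and 0, with 1300, 68 and 75 of all genes called. The median log2 fold change of the immunoglobulin genes in these 3 fits was -5.86, -5.47 and -5.52. At an unadjusted p under 0.05 they held 80.2, 66.7 and 70.2% of these genes, against 22.3, 13.1 and 13.5% of all genes.

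Jchain held 1312, 77.7 and 81.0 CPM in the WT mice of 8 weeks and 21.8, 10.2 and 15.4 CPM in the iRhom2-/- mice. The genotypes did not overlap, with a log2 fold change of -4.98 ± 1.23 (approximate standard error, 3 mice per genotype; adjusted p 0.0951). Without WT mouse 1 the change was -2.34 ± 0.27 (adjusted p 0.0169). Leaving out any of the other 5 mice took its adjusted p above 0.1, up to 0.314. The adjusted p of Jchain was also 0.101 with RLE scaling, 0.12 with library totals and 0.197 in 1 fit of all 24 libraries. Its changes there were -4.99, -4.84 and -4.95.

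Igha, the constant gene of IgA, held 4374, 216 and 226 CPM in WT and 60.1, 28.1 and 47.0 CPM in iRhom2-/- mice of 8 weeks, again without overlap. Its log2 fold change was -5.19 ± 1.31 and its adjusted p 0.1002, just above the threshold of 0.1; without WT mouse 1 these were -2.31 ± 0.27 and 0.0184. Igkc, the kappa constant gene, held 2472, 102 and 115 CPM in WT and 34.7, 17.5 and 26.7 CPM in iRhom2-/- mice (log2 fold change -5.12 ± 1.35, adjusted p 0.109; without WT mouse 1 -2.06 ± 0.25, 0.0195). The lambda constant gene Iglc2 held 109, 4.08 and 3.82 CPM in WT and 0.394, 0.633 and 0.524 CPM in iRhom2-/- mice. It was called lower, at -6.27 ± 1.56 (adjusted p 0.0966), and without WT mouse 1 at -2.95 ± 0.31 (0.0109). With any of the other 5 mice left out, the adjusted p of Iglc2 was above 0.1, up to 0.308. It was also 0.102 with RLE scaling (log2 fold change -6.28) and 0.119 with library totals (-6.13). The other lambda constant genes were not called: Iglc1 was at -3.25 ± 0.88 (0.114), without overlap, and at -1.58 (0.108) without WT mouse 1, and Iglc3 at -3.74 ± 1.47 (0.220), with overlap, and at -0.80 (0.713).

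The changes of all 4 IgG genes were larger with WT mouse 1 than without it. Ighg2b held 1756, 6.11 and 12.1 CPM in WT and 0.684, 1.43 and 1.46 CPM in iRhom2-/- mice of 8 weeks (log2 fold change -8.99 ± 2.45, adjusted p 0.115; without WT mouse 1 -2.95 ± 0.40, 0.0284). Ighg2c held 959, 3.88 and 13.3 CPM against 0.083, 0.401 and 0.433 CPM (-10.10 ± 2.56, 0.1002; without WT mouse 1 -4.83 ± 0.70, 0.0341). Both genes were lower in every iRhom2-/- mouse than in any WT mouse of that age. Ighg1 (-4.39 ± 1.58, 0.190; without WT mouse 1 -0.27 ± 0.48, 0.815) and Ighg3 (-5.50 ± 1.84, 0.169; without WT mouse 1 -1.24 ± 0.96, 0.542) overlapped between genotypes and were not called with or without that mouse.

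Ighm and Ighd, transcribed by B cells that have not switched isotype, were not called at 8 weeks. Ighm held 56.9, 20.8 and 17.0 CPM in WT and 19.8, 16.6 and 11.3 CPM in iRhom2-/- mice, with overlap (log2 fold change -1.01 ± 0.47, adjusted p 0.283). Ighd held 1.63, 2.26 and 1.71 CPM against 1.35, 0.949 and 0.729 CPM, without overlap (-0.90 ± 0.33, 0.197). Without WT mouse 1 the changes were -0.26 for Ighm and -0.99 for Ighd, and neither gene was called in any of the 6 fits that left out 1 mouse.

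The variable genes with the smallest p at 8 weeks were Igkv19-93 (log2 fold change -4.66 ± 0.77, adjusted p 0.0426), Ighv1-26 (-8.63 ± 1.52, 0.0481) and Ighv5-9-1 (-5.65 ± 1.02, 0.0517). Igkv19-93 held 2.66, 1.12 and 0.682 CPM in WT and 0.104, 0.0211 and 0.0455 CPM in iRhom2-/- mice. Ighv1-26 held 9.41, 1.28 and 0.877 CPM against 0, 0.0211 and 0 CPM, and Ighv5-9-1 held 1.5, 0.479 and 0.536 CPM against 0, 0.0422 and 0 CPM. The iRhom2-/- values were 1 count of Ighv1-26 and 2 counts of Ighv5-9-1 in all. Both lie under the floor of 3 counts per library, so the sizes of these changes are not exact. No iRhom2-/- mouse reached a WT mouse in these 3 genes. Igkv19-93 and Ighv1-26 kept an adjusted p under 0.1 in 3 of the 6 fits without 1 mouse and Ighv5-9-1 in 2. WT mouse 2 and iRhom2-/- mice 2 and 3 were among the mice whose removal lost the call, with adjusted p up to 0.195, 0.237 and 0.199. Without WT mouse 1 the changes were -3.93, -6.78 and -4.92. Ighv2-5 had no count in the 3 iRhom2-/- mice and held 126, 3.1 and 0.292 CPM in WT mice, at least 670-fold higher in WT with 3 counts per library as the floor, and at least 26.3-fold without WT mouse 1.

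**Figure D2:**
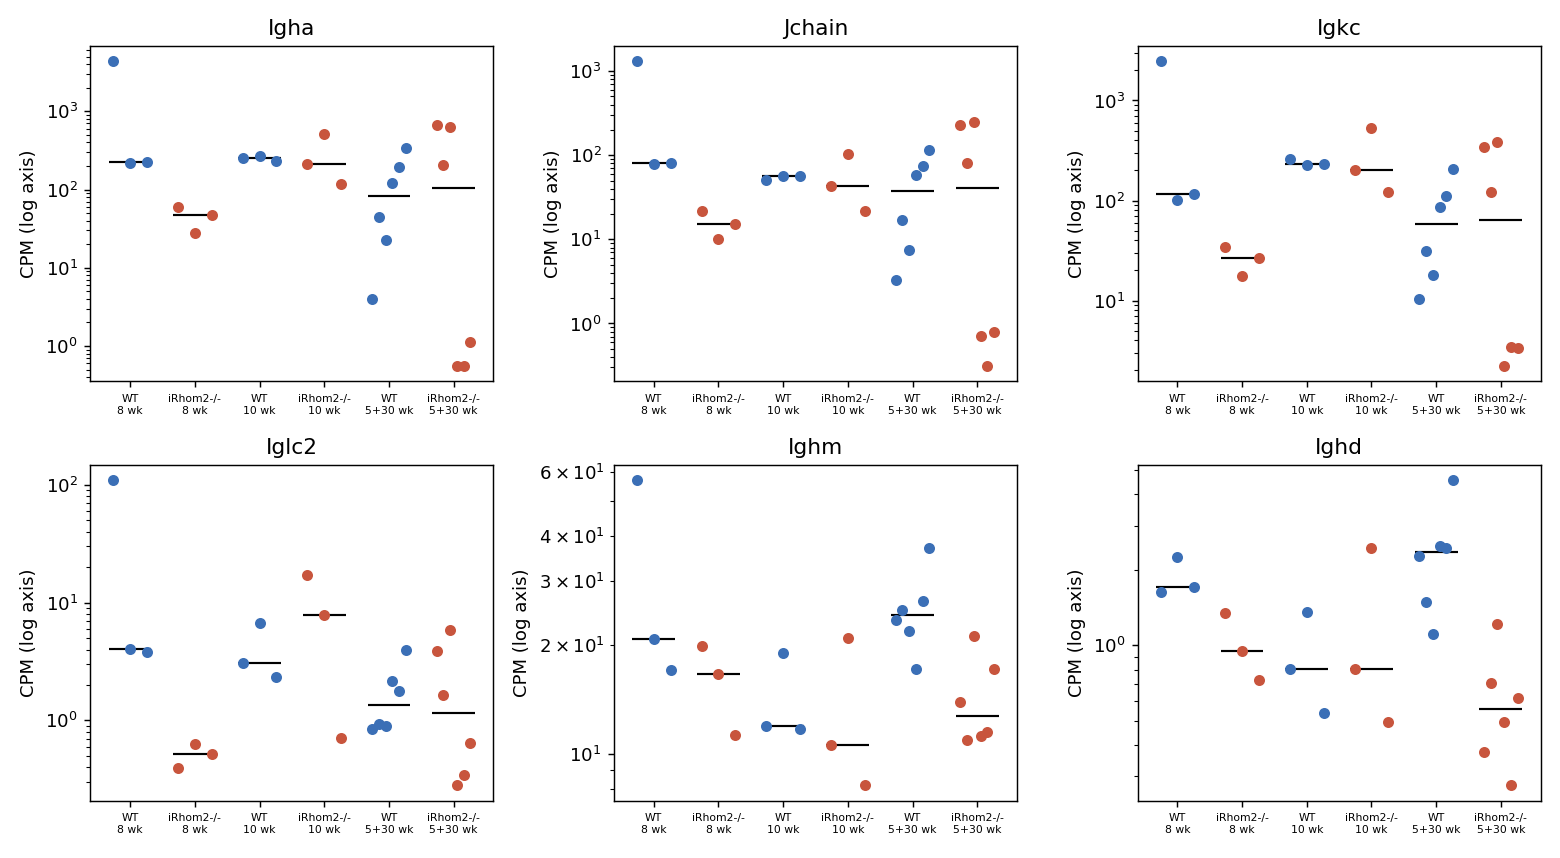
CPM of Igha, Jchain, Igkc, Iglc2, Ighm and Ighd in each mouse, on log axes; points are mice and lines are group medians. At 8 weeks Igha, Jchain, Igkc, Iglc2 and Ighd do not overlap between genotypes, and at 10 weeks all 6 genes overlap.

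The same question at 10 weeks gave other numbers. Of 18764 genes tested, 21 (0.112%) were lower and 16 (0.0853%) higher in iRhom2-/- mice. By edgeR 0 of 92 immunoglobulin genes tested were called. At an unadjusted p under 0.05, 1 was lower and 1 higher, where 7.79% of all genes had such a p, and DESeq2 called 1 lower, with 289 of all genes (1.54%) called. The median log2 fold change of the 92 genes was 0.02, and -0.06 with library totals in place of TMM. Single mice moved it either way, to -0.88 without iRhom2-/- mouse 2 and 0.53 without iRhom2-/- mouse 3. Leaving out any 1 mouse of that age left the number called by edgeR at 0.

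Jchain at 10 weeks held 51.3, 56.2 and 56.3 CPM in WT and 42.6, 103 and 21.9 CPM in iRhom2-/- mice (log2 fold change 0.04 ± 0.47, adjusted p 0.991). Igha held 253, 266 and 233 CPM against 215, 520 and 117 CPM (0.19 ± 0.46, 0.957). The WT values of both genes lay close together and inside the range of the iRhom2-/- mice, where mouse 2 was highest and mouse 3 lowest. Igkc had a log2 fold change of 0.26 ± 0.47 (adjusted p 0.945) and Ighm of -0.10 ± 0.36 (0.971). Without iRhom2-/- mouse 2 the changes of Jchain, Igha and Igkc were -0.77, -0.61 and -0.59, and none was called.

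At 5 and 30 weeks together, 78 of 18481 genes tested (0.422%) were lower and 120 (0.649%) higher in iRhom2-/- mice. Of 43 immunoglobulin genes tested, 1 was lower, Ighd, and 0 were higher. At an unadjusted p under 0.05, 2 (4.65%) were lower and 0 higher, a smaller share than the 14.2% of all genes. This fit had no term for age, and Jchain ran from 0.311 to 251 CPM among the iRhom2-/- libraries. How far such spread lowers the share was not tested. DESeq2 called 2 lower and 0 higher, with 916 of all genes (4.96%) called. The median log2 fold change of the 43 genes was 1.00, and it ran from 0.36 without iRhom2-/- library 7 to 1.72 without WT library 12. Among the 43, 0 had all libraries of 1 genotype on the same side of the other, which was rare over all genes too (0.666% lower and 0.996% higher). The number called was 2 without WT library 10 or iRhom2-/- library 9, and 0 without WT library 7, 11 or 12 or iRhom2-/- library 7, 8, 10, 11 or 12. Over all genes it was 154 and 241 in the first 2 of these fits and 52 to 131 in the others.

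Ighd ran from 1.11 through a median of 2.36 to 4.55 CPM in WT and from 0.276 through 0.554 to 1.22 CPM in iRhom2-/- libraries, with only iRhom2-/- library 9 above the lowest WT library (log2 fold change -1.94 ± 0.40, 6 libraries per genotype, adjusted p 0.0602). With 1 library left out its adjusted p ran from 0.0334 to 0.147, under 0.1 in 4 of 12 fits. Ighm ran from 17.1 through 24.1 to 37.1 CPM in WT and from 10.9 through 12.7 to 21.1 CPM in iRhom2-/- libraries (-0.80 ± 0.20, adjusted p 0.112). Its iRhom2-/- libraries 9 and 12 reached into the WT range. Without WT library 10 or iRhom2-/- library 9 its adjusted p fell under 0.1, to 0.0628 at the lowest.

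Jchain at 5 and 30 weeks held 3.25, 16.8, 7.57, 57.5, 74.9 and 114 CPM in WT libraries 7 to 12. In iRhom2-/- libraries 7 to 12 it held 229, 80.8, 251, 0.703, 0.311 and 0.790 CPM. All 6 WT values thus lay within the range of the iRhom2-/- values (log2 fold change 1.04 ± 1.27, adjusted p 0.764). Igha ran from 4.03 through 82.3 to 343 CPM in WT and from 0.553 through 104 to 669 CPM in iRhom2-/- libraries (1.06 ± 1.42, 0.788). Igkc ran from 10.4 through 58.6 to 208 CPM and from 2.21 through 63.3 to 389 CPM (0.90 ± 1.15, 0.774). Ighg2c had no count in iRhom2-/- libraries 10, 11 and 12, which allows up to 0.105, 0.104 and 0.074 CPM, and held 54.7, 13.6 and 84.8 CPM in libraries 7, 8 and 9. Whether these differences within the stratum go with age could not be read from the columns.

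Over all 24 mice, with the stratum as a term, 177 of 20763 genes tested (0.852%) were lower and 233 (1.12%) higher in iRhom2-/- mice. Of 145 immunoglobulin genes tested, 1 was lower and 0 higher. At an unadjusted p under 0.05, 9 (6.21%) were lower and 0 higher, a smaller share than the 12.4% of all genes. The share was larger in 2 other fits. In the 12 mice of 8 and 10 weeks alone 37 of 127 (29.1%) had such a p, against 11.2% of all genes. Without the stratum term 27.6% of the 145 genes had such a p, against 7.99% of all genes. DESeq2 called 3 lower and 0 higher, with 824 of all genes (3.97%) called. The median log2 fold change of the 145 genes was -0.44, and -2.33 in a fit of the 12 mice of 8 and 10 weeks alone, which called 0. Without WT mouse 1 of 8 weeks the median was 0.02, with 79 genes above 0 and 74 below, and without 1 iRhom2-/- mouse of 8 weeks it was -0.19 to -0.15. Leaving out mice of 8 and 10 weeks in turn, the number called was 3 without iRhom2-/- mouse 2 of 10 weeks, and 2 without WT mouse 1 or 3 of 10 weeks or WT mouse 3 of 8 weeks. Over all genes 727 were called in the first of these fits and 333 to 375 in the others. The gene called was Igkv4-51 (log2 fold change -4.28 ± 0.90, adjusted p 0.0166), with 71 counts spread over 9 of 12 WT libraries and 2 counts in 2 of 12 iRhom2-/- libraries. It stayed under an adjusted p of 0.1 in all 12 fits that left out 1 mouse of 8 or 10 weeks. Ighm (-0.68 ± 0.20, 0.115), Ighd (-1.09 ± 0.35, 0.156) and Jchain (-0.25 ± 1.03, 0.958) were above the threshold. Without WT mouse 3 of 8 weeks, WT mouse 1 of 10 weeks or iRhom2-/- mouse 2 of 10 weeks the adjusted p of Ighm fell under 0.1, to 0.0241 at the lowest; that of Ighd did so without WT mouse 3 or iRhom2-/- mouse 2 of 10 weeks, to 0.0157.

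Whether the genotype difference itself differed between strata was tested as an interaction, which called 10 of 20763 genes (0.0482%). By edgeR 0 of 145 immunoglobulin genes were called, with 15 (10.3%) called by the likelihood ratio test of DESeq2, which called 495 of all genes (2.38%). At an unadjusted p under 0.05 the interaction held 94 of the 145 (64.8%) and 2640 of all genes (12.7%), and without WT mouse 1 of 8 weeks 34 of 153 (22.2%) and 2103 of all genes (9.94%). Among iRhom2-/- mice of 10 weeks, dropping mouse 1 gave 1 called immunoglobulin gene of 159 by edgeR (0.629%), below the 0.963% of all genes, and dropping mouse 3 gave 3 (1.89%), with 0.345% of all genes. The interaction adjusted p was 0.348 for Jchain, 0.382 for Igha, 0.309 for Igkc and 0.276 for Ighd. At the adjusted threshold no single immunoglobulin gene was thus shown by edgeR to differ between strata in its genotype difference.

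The heavy chain make-up was read as shares of the counts on the 8 heavy constant genes. Igha had the largest share in 20 of 24 libraries and Ighm in the other 4; per kilobase of annotated exons these numbers were 19 and 5. At 8 weeks the Igha share was 60.6 to 86.2% in WT and 58.3 to 75.5% in iRhom2-/- mice, and the Ighm share 0.789 to 8.30% and 18.1 to 34.5%, so that the Ighm shares did not overlap. At 10 weeks the Igha share was 80.7 to 85.3% in WT and 69.1 to 92.0% in iRhom2-/- mice. At 5 and 30 weeks it ran from 12.0 through 65.4 to 79.2% in WT and from 4.42 through 41.8 to 84.9% in iRhom2-/- libraries.

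IgG genes together made up 38.5% of heavy constant counts in WT mouse 1 of 8 weeks (95% Wilson interval 38.4 to 38.7%) and 27.2% in iRhom2-/- mouse 1 of 10 weeks (26.4 to 28.1%), the 2 highest shares of the 24 libraries. In iRhom2-/- libraries 10, 11 and 12 of 5 and 30 weeks Ighm made up 90.6% (87.1 to 93.2%), 91.7% (88.4 to 94.1%) and 89.5% (87.1 to 91.4%) of 352, 362 and 780 heavy constant counts. These intervals cover counting error only. Ighm itself was 11.2, 11.5 and 17.2 CPM in those 3 libraries, within the range of the other iRhom2-/- libraries of that stratum, 10.9 to 21.1 CPM. Ighe had no count in 18 of 24 libraries and reached 2.70 CPM in WT mouse 1 of 8 weeks. Kappa made up 65.2 to 98.1% of light constant counts over the 24 libraries, lowest in iRhom2-/- library 12 of 5 and 30 weeks with 207 light constant counts.

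**Figure D3:**
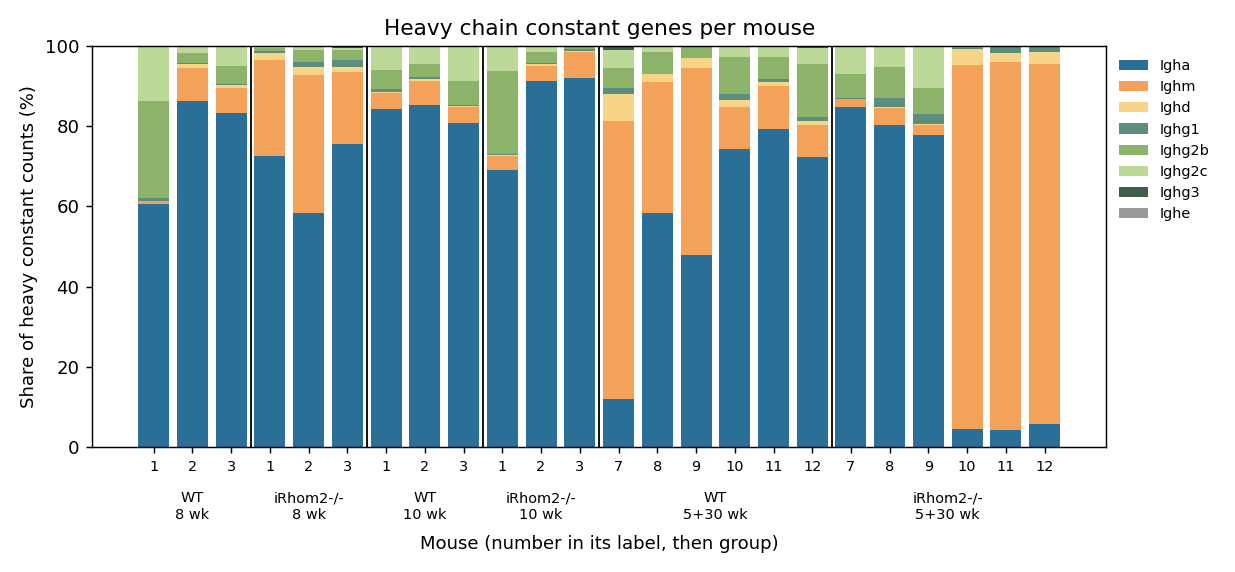
Share of heavy constant counts that each heavy constant gene took in each mouse, in percent; bars are mice with the number in their label. Ighm takes 89.5 to 91.7% in iRhom2-/- libraries 10 to 12 of 5 and 30 weeks.

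The variable genes differed from mouse to mouse. Over the 24 libraries 15 different Ighv genes and 12 different Igkv genes were the most abundant of their family; Igkv10-96 led in 7 libraries, Igkv1-110 in 4 and Ighv2-5 in 4. Of the 183 variable genes 70 had over 50% of their summed CPM in 1 library, which was WT mouse 1 of 8 weeks for 56 of them. Without that mouse, an alternative chosen after the data were seen, the number was 24. The number of variable genes seen followed the counts behind them. At 8 weeks 68 to 78 Ighv genes had a count in WT mice, from 1295 to 42864 Ighv counts, and 34 to 46 in iRhom2-/- mice, from 154 to 302 counts. At 10 weeks 64 to 72 were seen in WT and 33 to 76 in iRhom2-/- mice. At 5 and 30 weeks the number ran from 18 through 50 to 73 in WT and from 3 through 41.5 to 81 in iRhom2-/- libraries.

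At an equal depth of 200 counts, chosen after the data were seen, the expected number of Igkv genes was 38.7 to 50.4 in WT and 42.4 to 45.0 in iRhom2-/- mice of 8 weeks, which overlapped. At 10 weeks it was 48.0 to 51.2 in WT and 40.2 to 48.9 in iRhom2-/- mice. Among the 20 libraries with at least 200 Igkv counts the lowest value, 34.5, was that of WT library 9 of 5 and 30 weeks, in which Igkv5-43 alone took 35.3% of Igkv counts (95% Wilson interval 30.0 to 41.0%) and Ighv1-72 took 28.6% of Ighv counts (21.7 to 36.5%). In WT mouse 1 of 8 weeks Igkv17-127 took 11.8% and Ighv2-5 took 13.5% of their families, and the inverse Simpson index, an effective number of equally abundant genes, was 19.0 for Igkv and 17.1 for Ighv. The other 2 WT mice of 8 weeks had 29.1 and 22.4 for Igkv and 31.8 and 34.6 for Ighv.

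**Figure D4:**
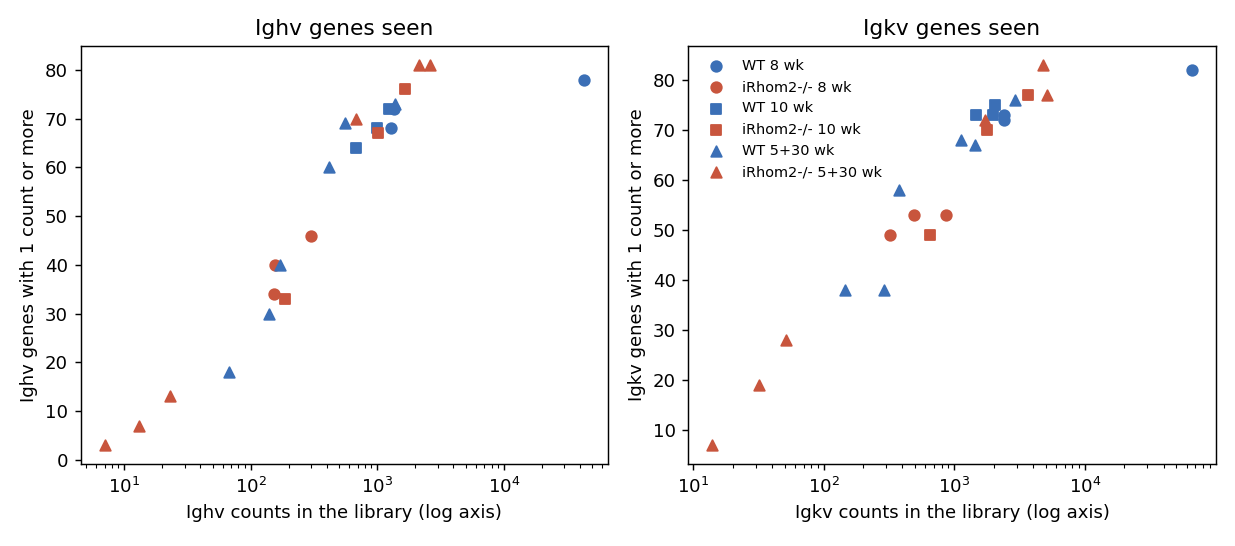
Number of Ighv and Igkv genes with 1 count or more against the counts on that family in each library, on a log axis; points are mice. Libraries with few counts show few genes, from 3 Ighv genes at 7 counts in iRhom2-/- library 10 of 5 and 30 weeks to 81 at 2631 counts in iRhom2-/- library 7.

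Counts of single variable genes rest on near-identical sequences. Against its closest member of the same family, the median variable gene was 95.2% identical, and 94 of 183 were at least 95% identical. The most abundant kappa and lambda genes by mean CPM are shown with their closest gene, because the few bases that differ, in capitals, are all that separates their reads in these stretches. Igkv17-127 ranks first through WT mouse 1 of 8 weeks, which held 7704 of its 8341 counts. Igkv17-127 (chromosome 6, 67861550 to 67861639) read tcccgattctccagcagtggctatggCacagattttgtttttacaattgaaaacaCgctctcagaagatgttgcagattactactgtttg, and Igkv17-121 (68037209 to 68037298) read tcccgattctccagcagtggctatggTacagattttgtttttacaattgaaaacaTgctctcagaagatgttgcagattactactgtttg, with 2 of 90 bases different. Iglv1 (chromosome 16, minus strand, 19085037 to 19085126) read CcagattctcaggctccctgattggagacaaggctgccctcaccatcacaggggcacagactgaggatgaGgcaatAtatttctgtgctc, and Iglv2 (19260421 to 19260510) read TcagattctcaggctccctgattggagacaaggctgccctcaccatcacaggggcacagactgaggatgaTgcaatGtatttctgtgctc, with 3 of 90 different. Somatic mutation can add such differences within a mouse, and it was not measured.

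Other genes of plasma cells and their surroundings were read from 13 marker lists. At 8 weeks Jchain was the 1 plasma cell gene called of 15 tested. At the adjusted threshold 1.74% of all genes were lower. Of these 15, 10 were lower at an unadjusted p under 0.05, where 19.8% of all genes had such a p. The median log2 fold change of the 15 was -0.94. Mzb1 held 32.9, 1.62 and 2.17 CPM in WT and 1.49, 1.05 and 0.979 CPM in iRhom2-/- mice (-3.41 ± 1.17, adjusted p 0.175; without WT mouse 1 -0.70). Pigr held 328, 71.1 and 65.2 CPM against 49.7, 30.7 and 22.5 CPM (-2.20 ± 0.67, 0.143; without WT mouse 1 -1.01). Of the homing and survival list Ccl28 was lower at 63.8, 37.8 and 30.0 against 14.9, 16.1 and 21.4 CPM (-1.35 ± 0.29, 0.0697), as were Itga4 (-0.52, 0.0629) and Ccl20 (-1.65, 0.0712). Without WT mouse 1 these were -0.98 (0.0522), -0.45 (0.0877) and -1.39 (0.135). None of these genes overlapped between genotypes.

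The T cell list had the lowest median at 8 weeks, -2.80 over 12 genes. Of these, Cd8a (-4.51, adjusted p 0.0779), Cd8b1 (-4.78, 0.0847) and Cd3d (-3.26, 0.0910) were called lower. At an unadjusted p under 0.05, 11 of 12 were lower, where 19.8% of all genes had such a p in either direction. WT mouse 1 held 9.71 CPM of Cd8a and the other WT mice 1.05 and 1.46. Without it the changes were -2.80 (0.0717), -3.17 (0.12) and -2.28 (0.152), so that Cd8b1 and Cd3d were no longer called. The median was -0.81 for B cell, -0.74 for macrophage, -0.72 for immunoglobulin transport and Fc receptor, -0.49 for erythrocyte, -0.06 for neutrophil and -0.02 for pre-B cell genes, with none called in these lists. The list median was -0.64 for homing and survival genes and -0.46 for germinal centre and class switch genes, of which Bcl6 was higher (0.49, 0.0910). Without WT mouse 1 the change of Bcl6 was again 0.49, with an adjusted p of 0.147. Nasal gland genes had a median of -0.98, with Dcpp1 higher (3.68, 0.000395) and Dcpp3 lower (-3.15, 0.0028). Olfactory neuron genes had a median of 0.49, with 9 of 10 higher at an unadjusted p under 0.05, against 19.8% of all genes. Cnga4 (0.60, 0.0542), Ano2 (0.56, 0.0625) and Cnga2 (0.53, 0.0848) were called higher. Without WT mouse 1 Cnga2 was at 0.43, with an adjusted p of 0.117. Sustentacular cell genes had a median of 0.23 with none called. With 1 mouse left out, Dcpp1 and Dcpp3 stayed called in all 6 fits and the other called list genes in 0 to 3 of 6.

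At 10 weeks no gene of the 13 lists was called by edgeR. The largest medians there were 1.16 for erythrocyte genes, with 0 of 5 at an unadjusted p under 0.05, and 0.84 for neutrophil genes. Of the neutrophil genes 5 of 8 were higher at that p, where 7.79% of all genes had such a p. The erythrocyte genes summed to 637, 1233 and 1553 CPM in WT and 517, 739 and 6152 CPM in iRhom2-/- mice, in rising order. Of Hbb-bs, iRhom2-/- mouse 2 held 68338 counts and mice 1 and 3 held 9103 and 5962, so the erythrocyte median rested on mouse 2. At 5 and 30 weeks Fas (-0.55, adjusted p 0.0761), Fcmr (-1.25, 0.0844), Cd79b (-1.07, 0.0951) and Dcpp3 (-3.37, 0.0968) were called lower, and Cd79a was not (-1.06, 0.112). The B cell list had a median of -0.90 there, with 9 of 12 genes lower at an unadjusted p under 0.05, and the plasma cell list -0.11 with 0 of 15. Over all genes 14.2% had such a p there. The T cell list had -1.11, with 4 of 11 genes lower at that p, and the macrophage list -0.34, with 7 of 12. Cd79b ran from 4.35 through 5.01 to 6.46 CPM in WT and from 1.41 through 2.20 to 3.90 CPM in iRhom2-/- libraries, without overlap. With 1 library left out, Fas stayed called in 1, Fcmr and Cd79b in 2 and Dcpp3 in 3 of 12 fits. Over all 24 mice Cd8b1 (-2.40, 0.0206), Dcpp3 (-2.50, 0.0436), Bank1 (-0.97, 0.0517), Fcgr1 (-0.70, 0.055) and Aif1 (-0.65, 0.0695) were lower and Dcpp1 higher (2.82, 0.0814). The T cell list there had 12 of 12 genes lower at an unadjusted p under 0.05, with a median of -1.33. The B cell list had 11 of 15 (-0.65), the macrophage list 6 of 12 (-0.34) and the plasma cell list 4 of 16 (-0.27). No gene of these lists was higher at that p, which 12.4% of all genes had. Without 1 mouse of 8 or 10 weeks Cd8b1, Dcpp3 and Bank1 stayed called in all 12 fits, Fcgr1 in 10, Aif1 in 8 and Dcpp1 in 5. Jchain is also on the plasma cell list, and Fcgr1 is on 2 lists.

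Outside the immunoglobulin symbols, the log2 CPM of Nr1d1 followed Jchain most closely over the 24 libraries (Pearson r 0.93) among 22521 genes. Other genes with a high r were C2 (0.93), Wfikkn2 (0.87) and Prelp (0.86). Over the 12 mice of 8 and 10 weeks alone r was 0.79 for Nr1d1, 0.83 for C2, 0.66 for Wfikkn2 and 0.39 for Prelp. Among the immunoglobulin genes r with Jchain over the 24 libraries was 0.99 for Igha and 0.96 for Igkc. These are descriptions of genes selected on these libraries. In RefSeq promoter windows, 1 of the 196 genes, Jchain, had a sequence; its 300 bases held neither the octamer ATGCAAAT nor its reverse complement, which were found in 1.74% of 32851 windows.

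Bulk RNA gives no cell numbers, so fewer plasma cells and less immunoglobulin RNA per cell cannot be told apart. The table has no row for Ighg2a, and reads of rearranged or mutated variable genes may have been lost or assigned to a related gene.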

How the data were processed

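The authors aligned reads to GRCm38 and estimated counts per gene with RSEM; the deposited estimated counts are whole numbers without normalization, and how they were rounded is not stated. The deposited table also holds the authors' log2 fold change, log2 CPM, likelihood ratio, p-value and FDR from edgeR, which were not used. Members, marker lists and named genes were chosen with earlier results of these data known. From the counts, genes kept by filterByExpr were tested with edgeR 4.0.16 in R 4.3.3 (TMM scaling, quasi-likelihood F test, Benjamini-Hochberg over all genes tested, threshold 0.1), within each stratum on its own libraries, over all 24 mice with stratum as a term, and as a genotype by stratum interaction. The standard error is the size of the log2 fold change over the square root of F. CPM used TMM sizes of all 24 libraries; 3 counts, the floor, were 0.118 CPM in the smallest library total. Pearson r used log2 of CPM plus 0.1 for genes with a count in at least 12 libraries. Alternatives were DESeq2 1.42.0, other scalings and filters, a threshold of 0.05, and leaving out each mouse of the stratum, or each mouse of 8 and 10 weeks in the fits of all 24. Shares of counts have Wilson intervals. Exon lengths, coordinates and sequences came from GENCODE M21, variable gene identity from edlib, promoter windows from RefSeq. The lists were plasma cell, B cell, pre-B cell, germinal centre and class switch, immunoglobulin transport and Fc receptors, plasma cell homing and survival, T cell, macrophage, neutrophil, erythrocyte, nasal gland, olfactory neuron and sustentacular cell. Fits were tested on simulated data with known changes, where in each stratum unchanged genes made up a larger share of the calls of DESeq2 than of edgeR. The simulated libraries of a genotype shared 1 mean per gene, with none set apart as WT mouse 1 of 8 weeks was. That comparison of DESeq2 and edgeR thus does not cover such a library. Sums, shares and diversity were not tested.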

Additional observations from a re-analysis of the deposited data

Results flagged for a closer look

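In the 2 groups of 6 libraries at 5 and 30 weeks, a library was listed where its gap to the next value exceeded the critical share of the group's range in Dixon's rule for 6 values. This held in 26 of 126 groups of values. How many groups of such values would show it by chance was not tested. WT library 12 was far above the rest in Ighg2c (18.1 CPM), Ighg3 (2.67), Iglc3 (2.98), Iglc1 (7.11), Ighg2b (62.7), Ighv1-64 (2.53), Igkv1-110 (10.1), Iglv1 (9.23), Igkv19-93 (1.18), Ighv1-26 (2.67) and Bank1 (2.53). WT library 10 was far above in Igkv4-51 (0.408), and WT library 11 in Ighv2-9-1 (0.412). Among iRhom2-/- libraries, library 9 was far above in Ighg3 (0.407), Ighg1 (21.1), Ighv2-5 (0.747), Ighv2-9-1 (1.09), Pigr (242) and Tnfrsf17 (0.475), library 7 in Iglc1 (16.5) and Iglv1 (19.7), and library 8 in Cd8b1 (0.269). The most abundant Igkv gene took 35.3% of Igkv counts in WT library 9 and 28.6% of 14 counts in iRhom2-/- library 10. The next values of the same groups were 11.0% and 12.5%, and the 95% Wilson interval of the latter library, 11.7 to 54.6%, reached its group's next value. Ighe was listed for WT library 10 (0.068 CPM) and iRhom2-/- library 9 (0.136 CPM) because the other libraries of each group had no count. These were 2 and 4 counts, against a floor of 3, so the Ighe entries carry little information.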

How the results depend on the processing

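The number of immunoglobulin genes called at 8 weeks, 19, was 2 at a threshold of 0.05, 16 with RLE scaling and 12 with library totals. It was 57 with a filter of 1 count in any library and 5 with 10 counts in every library. DESeq2 gave 33, and 1 fit of all 24 libraries gave 29. Of all genes 962 (4.98%) were called in the main fit and 270 at a threshold of 0.05. RLE scaling called 837 (4.33%) of all genes, library totals 393 (2.03%) and 1 fit of all 24 libraries 404 (1.95%). Without 1 mouse the number of immunoglobulin genes called ran from 0 (without iRhom2-/- mouse 2 or 3) to 33 (without WT mouse 1). With the replicate number of the labels as a replicate block it was 59, with 1454 of all genes (7.52%) called. Same-number mice correlated at 0.17, 0.07 and -0.01 at 8 weeks and at -0.0, 0.26 and 0.18 at 10 weeks. Mice of different numbers reached 0.16 and 0.27, so the numbers were not taken to pair the mice. At 10 weeks the number was 0, and 1 with DESeq2. At 5 and 30 weeks it was 1, and 0 at a threshold of 0.05, 2 with DESeq2, and 0 to 2 without 1 library. Over all 24 mice it was 1, with 2 without the stratum term and 3 with DESeq2. It was 0 in the 12 mice of 8 and 10 weeks alone, and 1 to 3 without 1 mouse of 8 or 10 weeks. For the interaction it was 0, 15 with DESeq2, and 0 to 3 without 1 mouse of 8 or 10 weeks. A filter of 10 counts in every library could not keep either called gene. Ighd had 8 counts in iRhom2-/- library 11, and Igkv4-51 had 0 in many libraries. That filter left 3 immunoglobulin genes at 5 and 30 weeks and 3 over all 24 mice, with 0 called in each. Of all genes it called 210 of 16500 (1.27%) and 363 of 16045 (2.26%). The log2 ratio of summed CPM at 8 weeks, -5.29, ran from -5.82 (without WT mouse 2) to -2.12 (without WT mouse 1), and that at 10 weeks, 0.19, from -0.53 to 0.58 (without iRhom2-/- mouse 2 and 3). The median log2 fold change of the genes tested ran from -0.88 to 0.53 at 10 weeks and from 0.36 to 1.72 at 5 and 30 weeks without 1 library. At 10 weeks the sign of small log2 fold changes turned: Jchain was -0.08 with library totals, -0.25 with the replicate block, and ran from -0.77 to 0.40 without 1 mouse. Igha was -0.09 and Igkc -0.04 with the replicate block; without 1 mouse Igha ran from -0.61 to 0.55, Igkc from -0.59 to 0.61 and Ighm from -0.61 to 0.17. Over all 24 mice Jchain, at -0.25, ran from -0.52 to 0.07 without 1 mouse of 8 or 10 weeks and from -2.46 (in the 12 mice of 8 and 10 weeks alone) to -0.20 in the other settings, and the median of the genes tested, -0.44, was -2.33 in those 12 mice, -1.10 without the stratum term, -0.70 with iRhom2-/- mouse 2 of 10 weeks left out, and 0.02 with WT mouse 1 of 8 weeks left out. Dropping any iRhom2-/- animal of 8 weeks put it at -0.19 to -0.15. The 200-count depth for variable genes, and the 24 in place of 70 variable genes held mostly by 1 library when WT mouse 1 of 8 weeks was left out, were chosen after seeing the data.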

Other observations

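The number of Jchain counts per Igha count was 0.187 to 0.241 in the 6 mice of 10 weeks and 0.300 to 0.363 in the 6 mice of 8 weeks. The number of Igkc counts per Igha count was 0.857 to 1.03 at 10 weeks and lower in all 6 mice of 8 weeks. Neither ratio overlapped between these ages, whose labels give different core reference numbers. Age and whatever those references stand for cannot be told apart here, and the ratios were not tested.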
